A study of Mus musculus with 18 samples.

Results

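Fadd and Casp8 were 2 of the 76 genes that a pooled CRISPR knockout screen targeted in mouse cells, a set that the study assembled around cell death, each with 3 sgRNAs, so 6 of the 252 sgRNAs in the library were theirs. The rule that selects them uses the gene name, and all 6 sgRNAs were counted in all 18 libraries. In ITPK1-WT cells, the level of Fadd sgRNAs fell to 0.907 of that in vehicle mice when mice received anti-hHer2 IgA. The Casp8 sgRNAs did not pass the test, where 38.2% of all genes were called in either direction. The non-targeting sgRNAs also had lower levels there. Scaled to them, the log2 fold change of Fadd was −0.090 instead of −0.14. In ITPK1-KO cells neither gene passed the test, where 13.2% of all genes were called.

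FADD is the adaptor that death receptors such as Fas and the TRAIL receptor recruit through their death domains, and that TNF receptor 1 engages in a second, cytosolic complex. It binds procaspase-8 through death effector domains, and caspase-8 activated there cleaves substrates such as Bid, which starts apoptosis. The same pair also restrains necroptosis, since caspase-8 cleaves RIPK1 and RIPK3, and loss of either protein can release the RIPK3 and MLKL route in cells that hold it.

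The cells were sensBa/F3, derived from Ba/F3, an interleukin-3-dependent pro-B cell line of the mouse. The ITPK1-WT pool carried the unedited kinase gene, and the ITPK1-KO pool joined 6 clones with ITPK1 deletions and no lentiviral integration. Each pool was transduced with the library and cultured for 10 days, then stained with CellTrace violet (ITPK1-WT) or yellow (ITPK1-KO), and as each dye marked 1 genotype, effects of dye and of genotype cannot be told apart. Both were mixed 1 to 1 and injected into the peritoneum of 8 hCD89-transgenic mice, whose myeloid cells carry the human Fc receptor for IgA. Of these, 4 mice (numbers 5 to 8) received anti-hHer2 IgA and 4 (numbers 1 to 4) received PBS, called vehicle here. After 16 h viable cells were sorted by dye, which gave a library of each background from every mouse, and 1 library of each background was made before injection. The mice are the replicates, but every mouse received cells of the same transduced pools, so the p-values measure the spread between mice and not between transductions. Neither the editing by each sgRNA nor the loss of FADD or caspase-8 protein was measured in the files used here.

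The sgRNAs are shown because the results below differ between sgRNAs of the same gene. Each is written 5′ to 3′ as deposited, and capitals mark the 12 bases nearest the PAM, where mismatches are least tolerated. The Fadd sgRNAs (mouse gene ID 14082) were as follows.
Fadd sg-1: tagatcgtGTCGGCGCAGCG
Fadd sg-2: aagctggaGCGCGTGCAGAG
Fadd sg-3: ttcgtttgCTCACGCGCTCG
The Casp8 sgRNAs (mouse gene ID 12370) were as follows.
Casp8 sg-1: gattatgaAAGATCAAGCAC
Casp8 sg-2: cttcctagACTGCAACCGAG
Casp8 sg-3: atgatcagACAGTATCCCCG

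The Fadd sgRNAs were rich in G and C, at 65%, 65% and 60%, and held 4, 2 and 4 CpG dinucleotides. The library ran from 25% to 85% with a median of 50%, and its median sgRNA held 1 CpG. The Casp8 sgRNAs lay nearer the middle of the library, at 35%, 55% and 50% with 0, 1 and 1 CpG. Fadd sg-2 and sg-3 share a run of 9 bases on opposite strands, but the bases beside that run differ. No other pair of sgRNAs to the same gene shared more than 5 bases in a row.

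Libraries held 317564 to 808586 reads, with 1326 to 3311 for the median sgRNA. The 6 sgRNAs of Fadd and Casp8 had 822 to 3985 reads in every library, none was at 0, and all 6 passed the filter of a mean of 10 reads. At 822 reads, counting error alone is 3.49% of the value. Cells sorted per recovered library numbered 657000 to 2000000, and the 2000000 of every vehicle library were not reached in 6 of the 8 IgA libraries. Reads per sorted cell ran from 0.159 to 0.688.

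Before injection the Fadd sgRNAs were among the scarcer ones and the Casp8 sgRNAs were near the middle. Levels are given relative to the non-targeting sgRNAs, as the summed reads of a gene over 3 times the mean of the 24 non-targeting sgRNAs. The level of Fadd was 48.1% with ITPK1 and 48.1% without it, the 11th and 10th lowest of 76 genes. Casp8 stood at 72.5% and 73.6%, 43rd from the lowest in both, where the median gene had 68.6% and 70.6%. Each is a single library, and how evenly the plasmid pool held these sgRNAs was not analysed here.

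The 3 sgRNAs of Fadd differed among themselves before injection. In ITPK1-WT cells sg-1 stood at 59.7% of the non-targeting level, sg-2 at 43.8% and sg-3 at 40.7%. In ITPK1-KO cells they stood at 54.3%, 46.0% and 44.2%. The order was the same in both backgrounds, with sg-1 highest. For Casp8, sg-2 was highest in both, at 86.5% and 93.3%, followed by sg-1 at 70.9% and 67.1% and sg-3 at 59.98% and 60.5%.

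As a share of all reads, Fadd had 0.819% (95% Wilson interval 0.796% to 0.843%, 4606 reads) in ITPK1-WT cells before injection and 0.808% (0.784% to 0.833%, 4173 reads) in ITPK1-KO cells. The log2 difference of these shares, ITPK1-KO minus ITPK1-WT, was −0.020 (95% interval −0.081 to 0.040), where the median over all 76 genes was −0.00045. For Casp8 it was 0.00076 (−0.048 to 0.050). The summed levels of both genes therefore differed by less than counting error, which is all that these intervals cover. Single sgRNAs differed more. By share of all reads, Fadd sg-1 had a log2 difference of −0.16 (−0.26 to −0.063), Casp8 sg-1 one of −0.10 (−0.19 to −0.015) and Casp8 sg-2 one of 0.087 (0.011 to 0.16). Which sgRNAs differed beyond counting error depended on the reference. Relative to the non-targeting sgRNAs the interval of Casp8 sg-1 included 0 (−0.081, −0.17 to 0.0079), while that of Fadd sg-3 did not (0.12, 0.0037 to 0.23).

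The IgA arm was then set against vehicle to ask whether loss of either gene changed the recovery of cells under IgA. Levels here are CPM, reads scaled to a common library size by TMM within a background, summed over the 3 sgRNAs of a gene. In ITPK1-WT cells Fadd had 8386, 8679, 8611 and 8269 CPM in vehicle mice 1 to 4, a mean of 8486 ± 191 (SD, n = 4). It had 7642, 7827, 7654 and 7621 CPM in IgA mice 5 to 8, a mean of 7686 ± 94.9. Every IgA mouse lay below every vehicle mouse. The mean of the non-targeting sgRNAs separated in the same direction, and how many of all genes and sgRNAs did so was not counted. The Fadd sgRNAs fell by 0.14 on the log2 scale (SE 0.026, 95% interval −0.19 to −0.087, adjusted p = 0.000248), which is 5th by p and 3rd lowest by fold change of 76 genes. Fewer cells were sorted from most IgA mice, and without mice 7 and 8, which gave the fewest, the log2 fold change was −0.13 (adjusted p = 0.00916). In this comparison 17.1% of all genes were called lower, 21.1% higher and 38.2% in either direction.

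Casp8 did not pass the test in the same mice. In ITPK1-WT cells it had 12484, 12202, 12434 and 12471 CPM in vehicle mice (12398 ± 132) and 11808, 12245, 12430 and 11963 CPM in IgA mice (12111 ± 279). The groups overlapped, with IgA mice 5 and 8 below all vehicle mice and mice 6 and 7 among them. The log2 fold change was −0.032 (SE 0.020, 95% interval −0.073 to 0.0084, adjusted p = 0.196), and it was 0.019 (adjusted p = 0.508) when libraries were scaled to the non-targeting sgRNAs. The interval leaves room for a fall of up to 0.073 and excludes one of the size measured for Fadd.

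Among the sgRNAs of Fadd in ITPK1-WT cells, all 3 had a negative log2 fold change and 2 passed the test. Over all 6 sgRNAs of both genes the count called lower was 2, where 13.9% of the 252 sgRNAs were called lower and 27.8% in either direction. Fadd sg-1 had 3301, 3550, 3745 and 3320 CPM in vehicle mice and 3005, 3197, 3019 and 3107 CPM in IgA mice. These groups did not overlap, but how many of all sgRNAs did so was not counted. Fadd sg-1 fell by 0.17 (SE 0.044, adjusted p = 0.00284). All vehicle mice and IgA mouse 5 belong to the first series of sample numbers in the read-file names, and IgA mice 6 to 8 to the second. With the series as a covariate, the IgA term therefore rests on mouse 5 alone against the vehicle mice, and only its size is given. It was −0.21 for sg-1 and −0.15 for the Fadd sum. For mice 6 to 8 arm and series cannot be told apart. Fadd sg-3 had 2651, 2741, 2319 and 2513 CPM in vehicle mice and 2248, 2409, 2330 and 2308 CPM in IgA mice. Here vehicle mouse 3 lay among the IgA mice. Its log2 fold change of −0.14 (SE 0.054, adjusted p = 0.0491) was at the threshold, and the call was lost without any 1 of mice 1, 2, 4, 5, 7 and 8, with an adjusted p of up to 0.197.

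Fadd sg-2 had 2434, 2387, 2547 and 2436 CPM in vehicle mice and 2389, 2221, 2305 and 2206 CPM in IgA mice. Of these IgA mice, mouse 5 lay within the vehicle range and the other 3 below it. The log2 fold change was −0.11 (SE 0.053, adjusted p = 0.134). The fall of the Fadd sum did not rest on 1 sgRNA, since it was −0.12 without sg-1 (adjusted p = 0.0148) and −0.16 without sg-2 (adjusted p = 0.00256). It was also called without sg-3. The 3 sgRNAs kept nearly their proportions, with sg-1 making up 41.0% ± 1.79 of the Fadd reads in vehicle mice and 40.1% ± 0.825 in IgA mice.

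No sgRNA of Casp8 was called in ITPK1-WT cells by edgeR or DESeq2, and 1 of 3, Casp8 sg-2, had an unadjusted p under 0.05. It stood at 5070, 5062, 5267 and 5034 CPM in vehicle mice and 4912, 4930, 4959 and 4558 CPM in IgA mice. These groups did not overlap, a trait that was not counted over all sgRNAs. The log2 fold change of Casp8 sg-2, −0.075 (SE 0.031), had an adjusted p of 0.0604. Without mouse 6 the adjusted p was 0.0407. Casp8 sg-1 had 3686 to 3955 CPM in vehicle mice and 3538 to 3983 CPM in IgA mice, a log2 fold change of 0.0067 (adjusted p = 0.915). Casp8 sg-3 had 3399 to 3597 CPM and 3358 to 3590 CPM, a log2 fold change of −0.014 (adjusted p = 0.843). The groups overlapped for both.

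The non-targeting sgRNAs also had lower levels under IgA in ITPK1-WT cells. Their mean level was 5629 ± 20.7 CPM in vehicle mice and 5429 ± 88.6 CPM in IgA mice, with no overlap. Their median log2 fold change was −0.059, and 8 of 24 were called lower and 1 higher. Scaled to the non-targeting sgRNAs, the median over all genes moved up by about 0.05 (from −0.0033 to 0.049), and genes called higher and lower in ITPK1-WT cells changed from 16 and 13 to 34 (44.7%) and 2. Fadd was 1 of those 2 lower genes, which are 2.63% of the 76, and its log2 fold change was −0.090 (adjusted p = 0.0136) instead of −0.14. It stayed 3rd lowest.

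Relative to the non-targeting sgRNAs of the same library, Fadd stood at 49.6%, 51.5%, 50.7% and 49.1% in ITPK1-WT cells of vehicle mice 1 to 4 (50.2% ± 1.09). In IgA mice 5 to 8 it stood at 46.5%, 47.3%, 47.3% and 47.8% (47.2% ± 0.518). All 4 IgA mice lay below all 4 vehicle mice, and how many of all genes did so on this scale was not counted. An exact two-sided permutation test of the log2 level gave p = 0.0286, the smallest that the 70 splits of 8 mice allow, and 0.0857 after adjustment over 6 such tests. Casp8 had 73.4% ± 0.729 under vehicle and 74.4% ± 2.04 under IgA (log2 difference 0.019, exact permutation p = 0.429, adjusted 0.643).

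The ratio of Fadd to Casp8 reads within a library does not depend on scaling. In ITPK1-WT cells it was 0.672, 0.711, 0.693 and 0.663 in vehicle mice and 0.647, 0.639, 0.616 and 0.637 in IgA mice. All IgA mice were lower, and how many other pairs of genes separated in this way was not counted. The log2 difference was −0.11 (exact two-sided permutation p = 0.0286, adjusted over the 6 tests 0.0857). Before injection the ratio was 0.663 in this background, equal to the lowest vehicle mouse.

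In ITPK1-KO cells neither gene passed the test of IgA against vehicle. Fadd had 7498, 8021, 8433 and 7671 CPM in vehicle mice (7906 ± 414) and 7927, 7518, 7565 and 7680 CPM in IgA mice (7672 ± 183), so the IgA values lay inside the vehicle range. Its log2 fold change was −0.038 (SE 0.032, 95% interval −0.11 to 0.029, adjusted p = 0.455). The vehicle mice spread more widely here than in ITPK1-WT cells, with mice 1 and 4 low and mouse 3 high. With the series of sample numbers as a covariate, which leaves IgA mouse 5 alone against the vehicle mice, the log2 fold change was 0.0091.

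Casp8 in ITPK1-KO cells had 12240, 12286, 12471 and 12145 CPM in vehicle mice (12286 ± 137). In IgA mice it had 12010, 12021, 12468 and 12472 CPM (12243 ± 262). Here 2 IgA mice were below all vehicle mice and 1 was above them, by 1 CPM. The log2 fold change was −0.0039 (SE 0.019, 95% interval −0.043 to 0.035, adjusted p = 0.905), and 0.011 when scaled to the non-targeting sgRNAs. None of the 6 sgRNAs was called in ITPK1-KO cells by edgeR or DESeq2, and 1, Casp8 sg-2, had an unadjusted p under 0.05, where 10.4% of 251 sgRNAs and 13.2% of 76 genes were called. The Fadd sgRNAs had log2 fold changes of −0.076, −0.053 and 0.023 (sg-1 to sg-3), and the Casp8 sgRNAs of 0.014, −0.063 and 0.064, with adjusted p-values of 0.215 to 0.873.

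Relative to the non-targeting sgRNAs, Fadd in ITPK1-KO cells had 46.5% ± 2.54 under vehicle and 45.5% ± 1.14 under IgA (log2 difference −0.028, exact permutation p = 0.571). Casp8 stood at 72.2% ± 1.33 and 72.7% ± 1.96 (0.0086, exact permutation p = 0.743). The ratio of Fadd to Casp8 reads was 0.613, 0.653, 0.676 and 0.632 in vehicle mice and 0.660, 0.625, 0.607 and 0.616 in IgA mice. These overlapped, and the log2 difference was −0.037 (exact permutation p = 0.400).

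Whether the IgA effect differed between backgrounds was tested directly. For Fadd the effect in ITPK1-KO cells minus that in ITPK1-WT cells was 0.097 on the log2 scale (SE 0.042, 95% interval 0.011 to 0.18, adjusted p = 0.300). So the fall of Fadd in ITPK1-WT cells was not shown to be particular to that background. For Casp8 the difference was 0.023 (SE 0.028, adjusted p = 0.731), and −0.0087 when scaled to the non-targeting sgRNAs. None of the 6 sgRNAs was called by edgeR or DESeq2, where 3.97% of 252 sgRNAs and 6.58% of 76 genes were called by edgeR. Only Fadd sg-3, of the 6, had an unadjusted p under 0.05, with a difference of 0.15 (adjusted p = 0.363).

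The 2 backgrounds of the same mice were also compared in each arm. In vehicle mice the Fadd sgRNAs were lower in the ITPK1-KO background, by a log2 difference (ITPK1-KO minus ITPK1-WT) of −0.11 (SE 0.030, 95% interval −0.17 to −0.047, adjusted p = 0.00293). Here 25% of genes were called lower in ITPK1-KO cells and 47.4% in either direction. Relative to the non-targeting sgRNAs within each mouse, the difference was −0.11 ± 0.060 (SD, n = 4), and Fadd was lower in ITPK1-KO cells in 4 of 4 mice. In IgA mice the log2 difference was −0.011 (95% interval −0.071 to 0.049, adjusted p = 0.766), where 25% of genes were called lower and 46.1% in either direction. The within-mouse difference there was −0.052 ± 0.046, lower in 3 of 4 mice. In the fit scaled to the non-targeting sgRNAs, the median of all 76 genes was −0.0096 in vehicle and −0.033 in IgA mice. With that scaling 22 genes were called lower and 12 higher in vehicle mice, and 29 lower and 5 higher in IgA mice.

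Of the 3 Fadd sgRNAs, sg-1 alone was called between backgrounds. In vehicle mice sg-1 was lower in ITPK1-KO cells by a log2 difference of −0.20 (SE 0.044, adjusted p = 0.000134), whereas sg-3 had −0.094 (adjusted p = 0.161) and sg-2 −0.0042 (adjusted p = 0.980). Of all 252 sgRNAs 17.9% were called lower here and 31.7% in either direction. The difference in sg-1 was close to that of −0.16 already present before injection. In IgA mice sg-1 had −0.11 (SE 0.044, adjusted p = 0.0438), where 18.3% of sgRNAs were called lower and 34.9% in either direction. That call was lost without any 1 of mice 4, 6, 7 and 8, with an adjusted p of up to 0.149. Fadd sg-2 and sg-3 had 0.041 and 0.059 in IgA mice and were not called.

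Casp8 passed the test between backgrounds in neither arm. Its log2 difference, ITPK1-KO minus ITPK1-WT, was −0.016 (SE 0.020, 95% interval −0.056 to 0.024, adjusted p = 0.496) in vehicle mice. In IgA mice it was 0.0065 (SE 0.019, 95% interval −0.033 to 0.046, adjusted p = 0.787), and −0.034 when scaled to the non-targeting sgRNAs. None of its 3 sgRNAs was called in either arm by edgeR or DESeq2, and 0 had an unadjusted p under 0.05. Relative to the non-targeting sgRNAs within each mouse, Casp8 had −0.033 ± 0.026 (SD, n = 4) in IgA mice, lower in ITPK1-KO cells in 4 of 4, and −0.023 ± 0.034 in vehicle mice, lower in 3 of 4. In the fit scaled to them, the median of all 76 genes was −0.033 in IgA and −0.0096 in vehicle mice. Casp8 in IgA mice was thus near the median gene. Casp8 sg-3 was lower in ITPK1-KO cells in 4 of 4 mice of each arm relative to the non-targeting sgRNAs, by −0.083 ± 0.065 in vehicle and −0.048 ± 0.025 in IgA mice. The median of all 252 sgRNAs in the scaled fit was −0.0091 and −0.029. How many genes or sgRNAs were lower in every mouse was not counted.

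The recovered cells were set against the pool before injection by the log2 change of each level relative to the non-targeting sgRNAs. This has no test, since there was 1 library of each background before injection, and all vehicle libraries belong to the first series of sample numbers and both starting libraries to the second, so time and series cannot be told apart there. Fadd in ITPK1-WT cells changed by 0.063 ± 0.031 in vehicle mice and by −0.027 ± 0.016 in IgA mice (SD, n = 4), where the median gene changed by 0.021 and 0.067. That put Fadd 64th from the lowest of 76 genes under vehicle and 8th under IgA. In ITPK1-KO cells it changed by −0.052 ± 0.078 and −0.080 ± 0.036, 19th and 9th from the lowest, where the median gene changed by −0.027 and 0.00022. Relative to all reads instead, Fadd in ITPK1-WT cells of IgA mice changed by −0.088.

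Relative to the non-targeting sgRNAs, Casp8 changed less than Fadd in 3 of these 4 groups, the exception being ITPK1-WT cells of IgA mice. Relative to all reads it changed by −0.024 there, less than Fadd, and so less than Fadd in all 4. It changed by 0.018 ± 0.014 in vehicle and 0.037 ± 0.040 in IgA mice in ITPK1-WT cells, and by −0.028 ± 0.027 and −0.019 ± 0.039 in ITPK1-KO cells. It was 33rd, 20th, 37th and 27th from the lowest. Over all 4 groups, the change of its 16 recovered libraries stayed between −0.061 and 0.082.

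The other genes of the pathway were counted in 4 lists, by the same gene-level test of IgA against vehicle. Receptors of the TNF superfamily, with and without a death domain, and the proteins of their complexes had 11 of 20 listed genes in the library. In ITPK1-WT cells 4 rose and 1 fell, with a median log2 fold change of 0.011 where that of all 76 genes was −0.0033 and 21.1% of them were called higher and 17.1% lower. Scaled to the non-targeting sgRNAs, 7 were called higher and 0 lower, where 44.7% of all genes were higher and 2.63% lower. Those that rose were the deubiquitinase Cyld at 0.13 (adjusted p = 0.000248), its partner Spata2 at 0.12 (adjusted p = 0.0124), the lymphotoxin receptor Ltbr at 0.090 (adjusted p = 0.0124) and Tnfrsf1a, TNF receptor 1, at 0.061 (adjusted p = 0.0299). Ripk1, the kinase that binds FADD and caspase-8 in the cytosolic complex, fell by 0.072 (adjusted p = 0.0140), a call that was lost when scaled to the non-targeting sgRNAs (−0.020, adjusted p = 0.507). Fas, the receptor that binds FADD directly, had 0.0039 and was not called, but had 0.056 and was called higher (adjusted p = 0.0265) when scaled to the non-targeting sgRNAs.

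In ITPK1-KO cells 2 genes of this list rose and 1 fell, with a median of 0.033 where that of all genes was 0.0071 and 7.89% of them were called higher and 5.26% lower. Cyld rose by 0.19 (adjusted p = 2.85e-06) and Ltbr by 0.076 (adjusted p = 0.0116), while Ripk1 fell by 0.26 (adjusted p = 4.09e-08). Ripk1 thus passed the test in the background in which Fadd had −0.038. The effect on Ripk1 differed between backgrounds by −0.19 (adjusted p = 1.03e-05).

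Genes downstream of caspase-8 had 10 of 12 listed members in the library. In ITPK1-WT cells 3 rose and 2 fell, with a median of 0.030, where 21.1% of all genes were called higher and 17.1% lower. Scaled to the non-targeting sgRNAs, 6 were called higher and 0 lower, with a median of 0.082. Of all genes 44.7% were higher and 2.63% lower with that scaling, and their median was 0.049. APAF1, the apoptosome scaffold, rose by 0.070, its caspase Casp9 by 0.052 and the pore protein Gsdmd by 0.062. Bid, which caspase-8 cleaves to engage mitochondria, fell by 0.061 (adjusted p = 0.0116) and CASP6 by 0.049 (adjusted p = 0.0421). Neither fall was called when scaled to the non-targeting sgRNAs, where Bid had −0.010 and CASP6 0.0023. In ITPK1-KO cells 0 of 10 were called by edgeR, with a median of 0.0090, and 0 by DESeq2, with 2 at an unadjusted p under 0.05. Scaled to the non-targeting sgRNAs, 2 of 10 were called, both higher, where 12 of all 76 genes were called higher and 3 lower.

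The necroptosis route had 5 of 6 listed genes in the library. In ITPK1-WT cells Ripk3, its kinase, rose by 0.082 (adjusted p = 0.0140). Ripk1 and the nucleic acid sensor Zbp1 fell, Zbp1 by 0.083 (adjusted p = 0.000814), though Zbp1 had −0.031 (adjusted p = 0.166) when scaled to the non-targeting sgRNAs. Mlkl, the effector that RIPK3 phosphorylates, had −0.0063 and with that scaling 0.046, and was not called. So 3 of 5 were called, where 38.2% of all genes were. With that scaling 2 were called higher and 0 lower, where 44.7% of all genes were higher and 2.63% lower. In ITPK1-KO cells Ripk1 was called and the other 4 were not, where 13.2% of all genes were called. Scaled to the non-targeting sgRNAs, Ripk3 was also called there, as higher (0.074, adjusted p = 0.0408). Of all 76 genes, 12 were called higher and 3 lower in that background with this scaling. The effect on Zbp1 differed between backgrounds by 0.090 (adjusted p = 0.0151).

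Of the other caspases, 8 of 10 listed were in the library. In ITPK1-WT cells CASP2 fell by 0.091 (adjusted p = 0.00187), CASP6 fell as given above, Casp9 rose as given above and Casp11, which senses cytosolic lipopolysaccharide, rose by 0.094 (adjusted p = 0.0299). So 4 of 8 were called, where 38.2% of all genes were. CASP2 had −0.040 (adjusted p = 0.0879) when scaled to the non-targeting sgRNAs. With that scaling 4 of the 8 were called higher and 0 lower, where 44.7% of all genes were higher and 2.63% lower. In ITPK1-KO cells 0 of 8 were called by edgeR and 0 by DESeq2, with 3 at an unadjusted p under 0.05, where 13.2% of all genes were called. Scaled to the non-targeting sgRNAs, 2 of 8 were called, both higher, where 12 of all 76 genes were called higher and 3 lower. The lists share members, and all these comparisons use the same vehicle libraries as those of Fadd and Casp8.

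The likeness of profiles was measured as the root mean square difference of log2 CPM over the 16 recovered libraries, each gene less its own mean within a background. CASP2 was most like Fadd with 0.041, followed by Alox15 with 0.046 and Bid with 0.048, where the median of 75 genes was 0.072. Casp8 was 13th of 75 by its likeness to Fadd, with 0.059. The genes most like Casp8 were Alox15, S100a7a and Dpysl4, each with 0.027, against a median of 0.041. Fadd was 55th of 75 for Casp8. Casp8 varied little, with a root mean square of 0.024 about its mean against 0.064 for Fadd. A flat profile would therefore lie nearer to Casp8 than any of the 3 genes named for it. Their closeness does not show a shared pattern, and whether they share one was not tested.

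Base composition moved with the fold changes over the library. In ITPK1-WT cells the other sgRNAs with at least 60% G and C, 69 in number, had a median log2 fold change of −0.030, against 0.0080 for the 177 with less. Of those 69, the 60 that target a gene had a median of −0.018. All 3 Fadd sgRNAs are of the first kind, and 7 of those 69 had a value below −0.1. In ITPK1-KO cells the medians were −0.0071 (−0.0021 for the 60 that target a gene) and 0.0096. The part of base composition in the fall of Fadd was not tested.

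In the authors' deposited table, which scores each sgRNA with MAGeCK, the Fadd sgRNAs in ITPK1-WT cells had log2 fold changes of −0.10, −0.022 and −0.072 (sg-1 to sg-3). In the authors' deposited table the Casp8 sgRNAs had 0.094, −0.0065 and 0.040 there, and the median of all 252 was 0.055. The FDR in the authors' deposited table was 0.998 for all 6, and 0 of 252 sgRNAs were under 0.05, where 70 passed edgeR's quasi-likelihood test. For ITPK1-KO cells the authors' deposited table gave Fadd −0.048, −0.038 and 0.045 and Casp8 0.027, −0.033 and 0.071, with FDR values of 0.974 to 0.980. In the authors' deposited table for that background 12 of 252 sgRNAs were under 0.05 and the median log2 fold change was 0.013.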

How the data were processed

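The counts are whole reads per sgRNA as deposited by the authors. Per the series' design text, only reads that matched a library sequence without mismatch were kept and then scored with MAGeCK RRA, version 0.5.6. Which aligner was used is not given in the sources used here. Tables deposited by the authors give a log2 fold change and p-values with an FDR for each sgRNA. They also hold 4 columns of joined per-sample values that were not used. The treatment of each mouse and the number of sorted cells (another unit, cells, per the file headers) were read from the authors' deposited legend. Coordinates are left out because no build is named in the files.

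Counts were tested with edgeR 4.0.16 in R 4.3.3 (quasi-likelihood, TMM, mean of at least 10 reads, Benjamini-Hochberg over all sgRNAs or all 76 genes, threshold 0.05). Gene counts are sums over 3 sgRNAs. The non-targeting sgRNAs formed 1 further summed feature outside the adjustment. Each background was fitted apart for IgA against vehicle. The other comparisons came from 1 fit of 16 libraries. Both libraries of a mouse share an animal, so mouse numbers pair them. Over 238 sgRNAs, their deviations from the group means correlated at −0.084 to 0.26. Exact permutation tests used scipy 1.17.1. Changes from before injection and likeness used 0.5 added reads, and the mean log2 CPM fitted by limma used a prior count of 2. Libraries of a group differed by more than counting error (chi-square per degree of freedom 2.24 to 5.62). Reads carry no molecular identifiers, so intervals of shares cover counting error only. The fit was tested on simulated data. These held no shift of the non-targeting sgRNAs, no series effect and no trend with base composition, so that test does not cover them. Alternatives were other scalings, filters, dispersions and tests (DESeq2 1.42.0, limma 3.58.1), a joint fit and a block for the mouse. Others were the series of sample numbers as a covariate and each mouse left out. Single sgRNAs were left out for IgA against vehicle only. Base composition and leaving out mice 7 and 8 were chosen after seeing the data.

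The genes and the 4 lists were chosen with earlier results of these data known. By the rule for names, the genes were Fadd, Casp8, 11 set genes of the lists, any list gene past the threshold, and the 3 genes most like each in profile. Some genes that this rule names are not reported here, though the counts and medians of the lists include them.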

Additional observations from a re-analysis of the deposited data

Results flagged for a closer look

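In 5 of 44 groups of 4 mice, 1 mouse stood far from the other 3 (a gap above Dixon's 95% critical value), which chance gives in about 1 group in 20. Fadd in ITPK1-WT cells of IgA mice had 7827 CPM in mouse 6 against 7621 to 7654 in the other 3, and mouse 6 was still below all vehicle mice. Casp8 sg-2 accounted for 3 of the 5. It had 4558 CPM in mouse 8 in ITPK1-WT cells under IgA (the others 4912 to 4959), 5267 CPM in mouse 3 in ITPK1-WT cells under vehicle (the others 5034 to 5070) and 4665 CPM in mouse 6 in ITPK1-KO cells under IgA (the others 4995 to 5034). Fadd sg-2 had 2514 CPM in mouse 8 in ITPK1-KO cells under IgA, where the others had 2289 to 2324.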

How the results depend on the processing

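The fall of Fadd in ITPK1-WT cells under IgA had a log2 fold change of −0.16 to −0.090 in all 14 other settings. It was called in each of them that compares more than 1 IgA mouse with vehicle. The series covariate rests on IgA mouse 5 alone, so no call is given for it. With each mouse left out the fall of Fadd was also called (−0.15 to −0.13, adjusted p up to 0.00180 by edgeR). The lower level of Fadd in ITPK1-KO cells of vehicle mice was called in all 11 (−0.12 to −0.093) and with each mouse left out (−0.13 to −0.089). Fadd was not refitted without single sgRNAs in that comparison, where sg-1 alone was called. The difference of its IgA effects was called in none (0.065 to 0.097; with each mouse left out 0.077 to 0.12). With the mouse as a replicate block the differences of IgA effects were 0.095 (Fadd, adjusted p = 0.137) and 0.022 (Casp8), the differences between backgrounds were −0.11 (adjusted p = 0.000389) and −0.012 for Fadd and −0.015 and 0.0065 for Casp8 in vehicle and IgA mice, 0, 1 and 1 of the 6 sgRNAs were called, and no call changed.

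The number of the 6 sgRNAs called under IgA in ITPK1-WT cells was 1 in place of 2 with DESeq2's size factors, total counts, scaling to the non-targeting sgRNAs, a minimum of 500 reads or without mice 7 and 8. The number was 1 to 3 with a mouse left out (3 without mouse 6). Between backgrounds in IgA mice it was 0 in place of 1 with total counts or without mice 7 and 8, and 0 to 1 with a mouse left out. In vehicle mice it was 1 to 2 with a mouse left out.

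Values that changed sign were all short of the threshold on both sides. Scaling to the non-targeting sgRNAs gave Casp8 0.019 and 0.011 under IgA in ITPK1-WT and ITPK1-KO cells, −0.0087 for their difference and −0.034 between backgrounds in IgA mice, and gave Casp8 sg-3 0.038 in ITPK1-WT cells. The series covariate gave Fadd 0.0091 in ITPK1-KO cells, Casp8 sg-1 −0.11 and −0.024 in ITPK1-WT and ITPK1-KO cells, and Casp8 sg-3 −0.024 in ITPK1-KO cells. Mean log2 CPM gave Casp8 0.0031, and its sum without sg-2 0.037, in ITPK1-KO cells. Total counts gave Fadd sg-2 0.0016 between backgrounds in vehicle mice. Without mice 7 and 8, Casp8 sg-1 had −0.031 and −0.0026 in ITPK1-WT and ITPK1-KO cells, Casp8 −0.0036 for the difference of effects and −0.017 between backgrounds in IgA mice, and Fadd sg-2 −0.011 and −0.013 for the same. The cause was not tested.

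With a mouse left out, under IgA in ITPK1-WT cells Casp8 sg-1 ran from −0.012 to 0.039 and Casp8 sg-3 from −0.033 to 0.0075. In ITPK1-KO cells Casp8 ran from −0.017 to 0.0051, Casp8 sg-1 from −0.0027 to 0.030 and Fadd sg-3 from −0.026 to 0.066. The difference of effects for Fadd sg-2 ran from −0.0040 to 0.077. Between backgrounds in IgA mice Fadd ran from −0.030 to 0.0059, Casp8 from −0.011 to 0.018, Fadd sg-2 from −0.0060 to 0.073 and Fadd sg-3 from −0.0035 to 0.097, and in vehicle mice Fadd sg-2 from −0.022 to 0.014. Relative to all reads, the change from before injection in ITPK1-WT cells was −0.088 for Fadd in IgA mice and 0.0019 and −0.024 for Casp8 in vehicle and IgA mice.

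Genes called higher and lower in ITPK1-WT cells under IgA numbered 16 and 13, against 6 and 5 without mice 7 and 8, 10 and 7 without mouse 7, and 34 and 2 when scaled to the non-targeting sgRNAs. Between backgrounds in IgA mice that scaling gave 5 and 29 in place of 16 and 19. Depth limits single sgRNAs more than sums.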
